A study of Mus musculus with 8 samples.

Results

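Collagens are triple-helical proteins of the extracellular matrix, and each chain of the helix is encoded by its own gene. The fibrillar collagens build the cable-like fibrils of skin, bone, tendon and cartilage, the collagen IV chains form the sheet-like network of basement membranes, and the other classes sit on fibrils, form beaded or short-chain networks, anchor the skin, span the cell membrane or carry long sugar chains. Early embryonic epithelia rest on basement membrane, whereas fibrillar collagens are made in quantity by mesenchyme and its derivatives.

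The genes described here were all protein-coding genes of the RNA-seq table whose symbol was that of a numbered collagen alpha chain, 44 of 32567 genes. By class they comprised 11 fibrillar, 6 basement membrane network, 9 fibril-associated, 3 short-chain network, 6 beaded filament, 1 anchoring fibril, 4 transmembrane and 2 multiplexin chains and 2 others. A further set of 7 cartilage chains ran across these classes. Of the 44, 39 passed the expression limit (log2 CPM, counts scaled to the size of the library, averaged over the 4 libraries, above 0), and Col24a1, Col4a3, Col4a4, Col19a1 and Col10a1 did not.

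The study sequenced poly-A RNA and small RNA from mouse embryonic stem cells (ESC) and from cells obtained by retinoic acid differentiation of embryoid bodies (RA-DIFF). Both stages were derived from 1 wild-type cell line and 1 line carrying Hdh ex4/5 on both chromosomes, a null allele of the mouse huntingtin gene Htt (Htt-null). ESC were kept on irradiated mouse embryonic fibroblasts or gelatin with LIF, and were passaged 4 times without feeders before embryoid bodies were made. Embryoid bodies were grown for 8 days with 5 µM retinoic acid from day 4, dissociated, plated on poly-ornithine and laminin, and collected 2 hours later. Each condition had 1 library from 1 line per genotype, so no comparison within a line or within a stage has a test based on replicates, and p-values computed from an assumed dispersion serve only as an alternative rule for counting genes. A gene is called higher or lower when its log2 ratio passes 0.75 in size, the fold limit of the study. Intervals are 95% exact conditional binomial intervals and, since PCR reads are not independent molecules, cover counting error only. The RNA-seq libraries held between 63617410 and 110569127 counts.

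The label check came out in opposite ways at the 2 stages. Htt had 14385 counts in wild-type and 7260 in Htt-null ESC, a log2 ratio of -0.58 (interval -0.62 to -0.53), but 8212 in the wild-type-labelled RA-DIFF library and 9722 in the one labelled Htt-null, a log2 ratio of 0.43 (0.39 to 0.47). The count covers the whole gene, not the altered exons alone. The levels per condition tabulated in the supplement of the study go with exchanged RA-DIFF labels. The RA-DIFF libraries are therefore named by their labels throughout, and exchanging the labels would turn every genotype direction given for RA-DIFF. Whether the small RNA labels share this problem was not tested.

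The collagen genes made up 0.0991% of all counts in wild-type ESC and 0.0739% in Htt-null ESC, against 0.223% in the wild-type-labelled RA-DIFF library and 0.428% in the one labelled Htt-null. The makeup differed as well. In ESC most collagen counts came from the multiplexins, 63.2% in wild-type and 57.2% in Htt-null cells, and nearly all of these from Col18a1, a heparan sulphate proteoglycan of basement membranes whose end fragment is endostatin. In RA-DIFF the multiplexins held 7.93% (labelled wild type) and 10.9% (labelled Htt-null). Fibrillar chains went from 10.4% and 10.5% of collagen counts in the 2 ESC libraries to 39.9% and 49.3%. Basement membrane chains held 14.3% and 17.8% in ESC, 35.8% in the wild-type-labelled RA-DIFF library and 21.9% in the one labelled Htt-null.

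**Figure D1:**
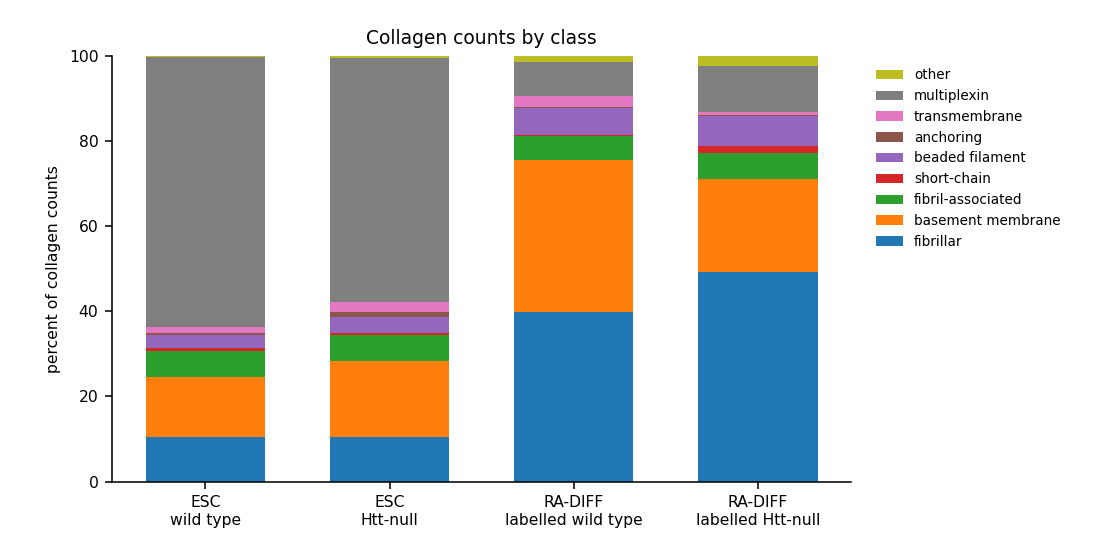
Share of collagen counts by class in the 4 RNA-seq libraries, as stacked bars that sum to 100 percent of each library's collagen counts. The multiplexin segment takes 63.2% in wild-type ESC and 7.93% in the wild-type-labelled RA-DIFF library, where the fibrillar and basement membrane segments take most of the bar.

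Levels between genes were compared as CPM per kb of merged exon (per-length level). Col18a1 led both ESC libraries, at 90.3 in wild-type and 58.7 in Htt-null cells, followed by Col4a1 (12.7 and 11.6), Col9a2 (12.2 and 7.61) and Col4a2 (6.36 and 5.41). The RA-DIFF library labelled wild type was led by Col4a1 at 56.3, Col3a1 at 37.1 and Col4a2 at 33.2. In the Htt-null-labelled RA-DIFF library the order was Col3a1 at 93.9, Col18a1 at 66.1, Col4a1 at 63.6 and Col4a2 at 44.7. Collagen III, encoded by Col3a1, forms fibrils of soft tissues, and it stood far down the list in ESC, with 208 and 53 counts.

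**Figure D2:**
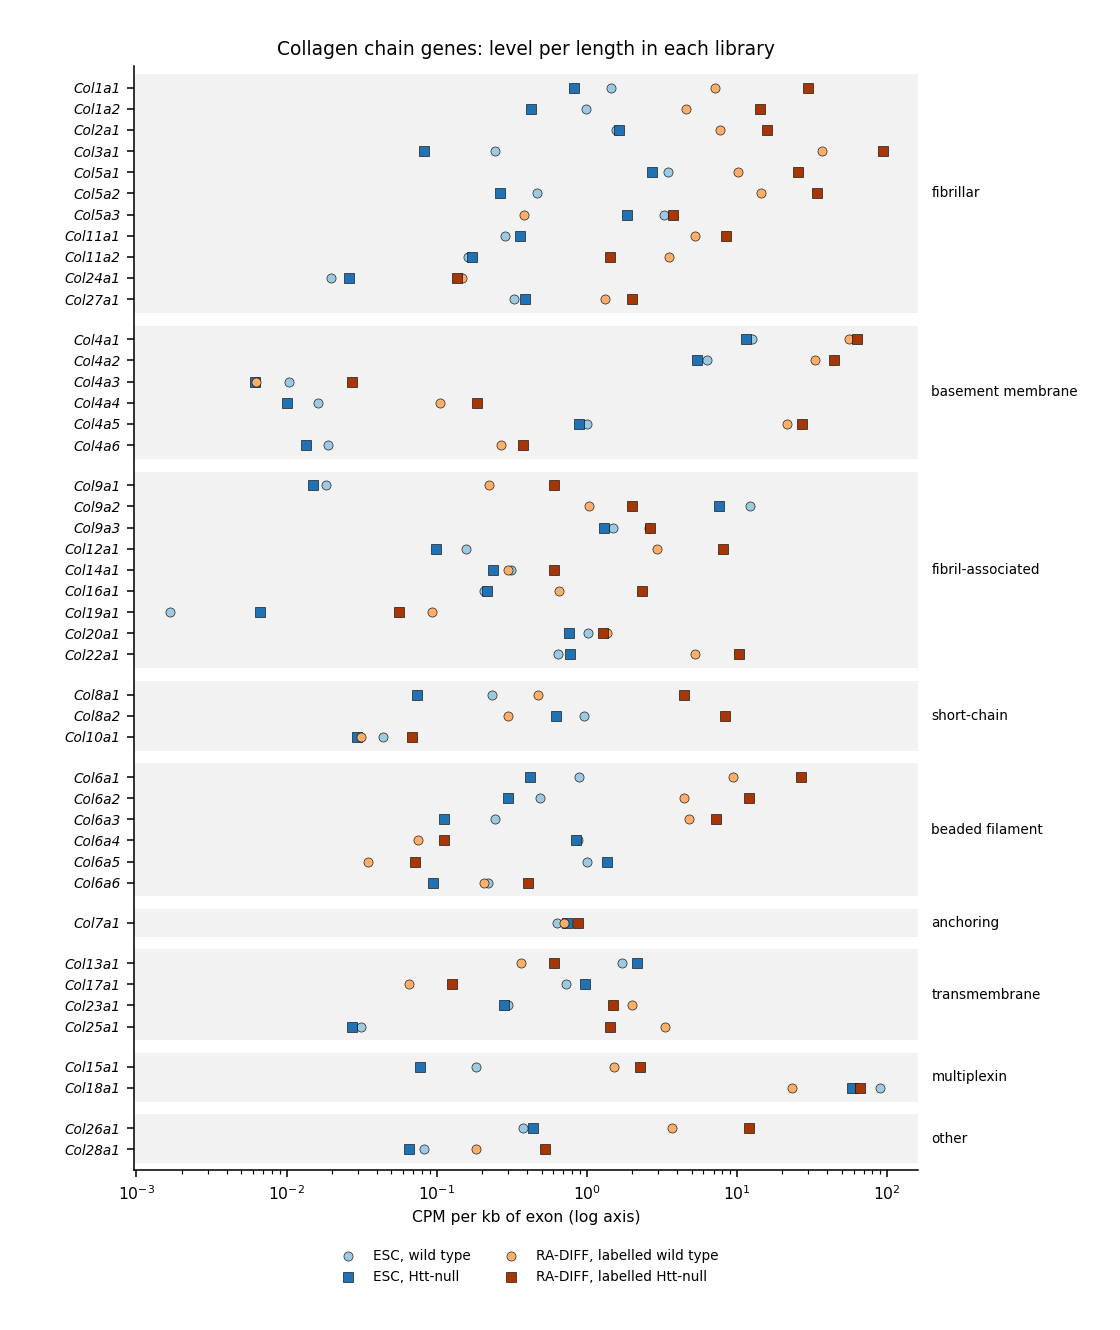
Per-length level of all 44 collagen genes in the 4 RNA-seq libraries (x axis, CPM per kb of exon, log axis), grouped by class; each symbol is 1 library. Col18a1 is the rightmost gene in ESC at 90.3 and 58.7, while Col3a1 reaches 93.9 in the Htt-null-labelled RA-DIFF library.

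The first question was how the chains differed between differentiated and undifferentiated cells of the same label. Most collagen genes were higher in RA-DIFF under either label. In cells labelled wild type 27 of 39 (69.2%) were higher, against 33.9% of all 15492 genes tested, and in cells labelled Htt-null 32 of 39 (82.1%), against 34.3%. Lower were 8 (20.5%; all genes 26.1%) and 5 (12.8%; all genes 24.8%), shares that do not stand above those of all genes. The median log2 ratio was 2.22 and 3.28 for the collagen genes and 0.12 and 0.17 for all genes. Stage was also tested over both lines, with the 2 libraries of a stage taken as its replicates although their genotypes differ. At an adjusted p under 0.05 (edgeR quasi-likelihood test, Benjamini-Hochberg over all genes tested) 26 of the 39 collagen genes were higher and 5 lower in RA-DIFF, against 31.0% and 28.3% of all genes. With the line as a block 24 were higher and 5 lower, against 27.3% and 25.3% of all genes, and Col8a1 and Col28a1 no longer passed. With that block and the RA-DIFF labels exchanged 32 differed in either direction, against 56.0% of all genes, and Col18a1 was added to those without the block. Without the block, Col5a3, Col6a6, Col7a1, Col8a2, Col9a3, Col14a1, Col18a1 and Col20a1 did not pass. Without the expression limit, 30 and 37 of 44 were higher and 8 and 5 lower. Markers of cell types also differed, in counts to be read beside 33.9% and 34.3% of all genes higher and 26.1% and 24.8% lower. Fibroblast and mesenchyme markers were higher in 10 and 11 of 11 cases. Their summed level went from 42.6 to 255.8 CPM under the wild-type label and from 38.2 to 1478 under the Htt-null label. Acta2 held 635.2 of the last value and Tagln 161.4. Neural markers were higher in 8 of 8 cases and pluripotency markers lower in 6 of 6 under both labels. Of 8 endothelial markers 2 were higher and 4 lower under both labels. Of 8 endoderm markers 2 and 4 were higher and 3 lower, and of 7 neural crest markers 4 and 5 were higher and 2 lower. Notochord markers were higher in 2 and 3 of 3 cases, and of 2 skeletal muscle markers 1 was higher and 1 lower. The part of these cell types in the collagen values was not tested.

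For the fibrillar chains and those after them, counts are given in the order wild-type ESC, Htt-null ESC, RA-DIFF labelled wild type and RA-DIFF labelled Htt-null. Col3a1 had 208, 53, 40789 and 90749 counts, log2 ratios of 7.23 and 10.11 over ESC. Col5a2, a chain of collagen V that seeds fibrils and lies next to Col3a1 on chromosome 1, had 387, 165, 15609 and 32314 counts (4.96 and 7.01). Both RA-DIFF libraries lay far above both ESC libraries for these neighbours. The collagen I chains of bone and skin followed at a lower level: Col1a1 had 831, 351, 5295 and 19381 counts (2.30 and 5.19). Col1a2 had 1058, 346, 6382 and 17526 counts (2.22 and 5.06). Col5a1, the partner of Col5a2, had 2569, 1504, 9697 and 21506 counts (1.55 and 3.24), so it began from a much higher ESC level than Col5a2. Per length, Col5a1 stood 7.50 and 10.3 times above Col5a2 in wild-type and Htt-null ESC, but at 0.70 and 0.75 times its level in the 2 RA-DIFF libraries.

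Col5a3, the remaining collagen V chain, was the fibrillar exception. It had 1947, 821, 291 and 2533 counts, so it was lower in RA-DIFF than in ESC under the wild-type label (log2 -3.10) and higher under the Htt-null label (1.03). The library labelled wild type stood apart as the lowest of the 4. The minor fibrillar chain Col27a1 had 369, 328, 1922 and 2566 counts (2.01 and 2.37). Col24a1, below the expression limit, had 13, 13, 126 and 103 counts.

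Chains of cartilage fibrils were among the higher genes. Col2a1, the main chain of cartilage collagen and also a gene of notochord, had 1250, 992, 7974 and 14569 counts (2.30 and 3.28). Col11a1 had 316, 299, 7526 and 10642 counts (4.20 and 4.55), and Col11a2 had 96, 77, 2709 and 966 (4.42 and 3.03). These collagen XI chains set the width of collagen II fibrils. Between the 2 RA-DIFF libraries only Col11a2 passed the fold limit (-1.30, Htt-null-labelled over wild-type-labelled), while Col11a1 stayed inside it at 0.69. The per-length ratio of Col11a1 to Col11a2 was 1.78 and 2.10 in ESC. In RA-DIFF it was 1.50 in the wild-type-labelled library and 5.94 in the Htt-null-labelled library. Of the collagen IX chains, which coat cartilage fibrils, Col9a1 was higher in RA-DIFF (3.33 and 4.97, from 8 and 5 counts in ESC to 126 and 302), Col9a3 was higher (0.80 and 1.02, the former call lost with DESeq2 size factors) and Col9a2 was lower (-3.55 and -1.93). Col9a2 had 3277, 1536, 359 and 608 counts and was the third gene by per-length level in ESC. Col9a3 overlaps the exons of Tcfl5 on the opposite strand over 234 bp, and its counts are uncertain where reads of the 2 genes could not be told apart. Col10a1, the collagen of hypertrophic cartilage, had 12, 6, 11 and 21 counts. The cartilage markers were divided. Of the 8 listed, 5 passed the expression limit, and 3 of these were higher and 2 lower in RA-DIFF under both labels, beside the shares of all genes given above. The higher ones encode transcription factors. Sox9 had 14 and 10 counts in ESC and 8098 and 7930 in RA-DIFF. Sox5 went from 27 and 14 to 5347 and 7147, and Sox6 from 101 and 74 to 5999 and 4868. The lower ones encode matrix proteins: Acan, the main cartilage proteoglycan, had 1168 and 975 counts in ESC and 16 in each RA-DIFF library, and Matn3 had 1371 and 571 in ESC and 104 and 430 in RA-DIFF. The other 3 had low counts throughout, with 66, 41, 2 and 16 for Matn1, 43, 65, 11 and 16 for Comp and 0, 0, 19 and 60 for Hapln1.

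Basement membrane chains were higher in RA-DIFF in every case above the limit. Col4a1 and Col4a2, the ubiquitous pair, had 8202, 5629, 47052 and 46761 counts and 3648, 2334, 24623 and 29108 counts, log2 ratios over ESC of 2.15 and 2.46 for Col4a1 and 2.38 and 3.05 for Col4a2. Col4a5 had 581, 391, 16162 and 18063 counts (4.42 and 4.93), a larger ratio than the ubiquitous pair under both labels. Its neighbour and partner Col4a6 had 13, 7, 239 and 296 counts (3.65 and 4.55). Col4a3 and Col4a4, the chains of kidney and lung basement membrane, lay below the expression limit. Col4a3 had 9, 4, 7 and 27 counts. Col4a4 had 15, 7, 125 and 194, with log2 ratios over ESC of 2.54 (1.91 to 3.57) and 3.94 (3.13 to 5.53).

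Among the fibril-associated chains Col12a1, which links fibrils in tendon and fascia, had 208, 98, 5034 and 12063 counts (4.21 and 6.33), and Col22a1, a chain of tissue junctions, had 516, 467, 5427 and 9397 (3.02 and 3.73). Col16a1 was higher at 1.63 and 3.41. Col14a1 passed the limit under the Htt-null label alone (-0.06 and 1.35). Col20a1 lay at 0.40 and at 0.75, where its call under the Htt-null label was lost with library size or DESeq2 scaling. Col19a1 had 1, 3, 72 and 38 counts. The beaded filament chains did not all go one way. Col6a1, with 335, 119, 4622 and 11580 counts, Col6a2, with 354, 162, 4169 and 9877, and Col6a3, the chains of the common collagen VI, were higher by between 3.18 and 4.28 under the wild-type label and between 5.32 and 5.99 under the Htt-null label. Of the 3 later chains, which lie side by side on chromosome 9, Col6a4 (-3.50 and -2.90) and Col6a5 (-4.74 and -4.19) were lower under both labels, and Col6a6 was at -0.08 and 2.05.

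Transmembrane chains split as well. Col25a1, a neuronal chain needed for motor nerves to reach muscle, had 35, 23, 4831 and 1827 counts (6.66 and 5.63) and Col23a1 was higher at 2.73 and 2.40. Col17a1, the hemidesmosome chain of epithelia, was lower (-3.41 and -2.91), as was Col13a1, which had 684, 649, 189 and 274 counts (-2.21 and -1.83). Of the short-chain collagens, which form the hexagonal lattices of cornea and vessel, Col8a1 had 158, 38, 413 and 3430 counts (1.01 and 5.85) and Col8a2 had 376, 182, 151 and 3664 (-1.67 and 3.73). For Col8a2 the wild-type-labelled RA-DIFF library was the lowest of the 4 and the one labelled Htt-null the highest. The multiplexin Col15a1 had 101, 32, 1084 and 1410 counts (3.03 and 4.81), and Col18a1 had 54986, 26863, 18453 and 45715 (-1.94 and 0.17). With the RA-DIFF labels exchanged, Col18a1 would be at -0.45 in wild-type and -1.32 in Htt-null cells. Col26a1, with 267, 234, 3380 and 9685 counts (3.28 and 4.77), and Col28a1, with 35, 21, 100 and 253 (1.10 and 2.91), were higher under both labels. Col7a1, the anchoring fibril of skin, had 563, 498, 815 and 885 counts and stayed within the limit in all 4 comparisons.

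**Figure D3:**
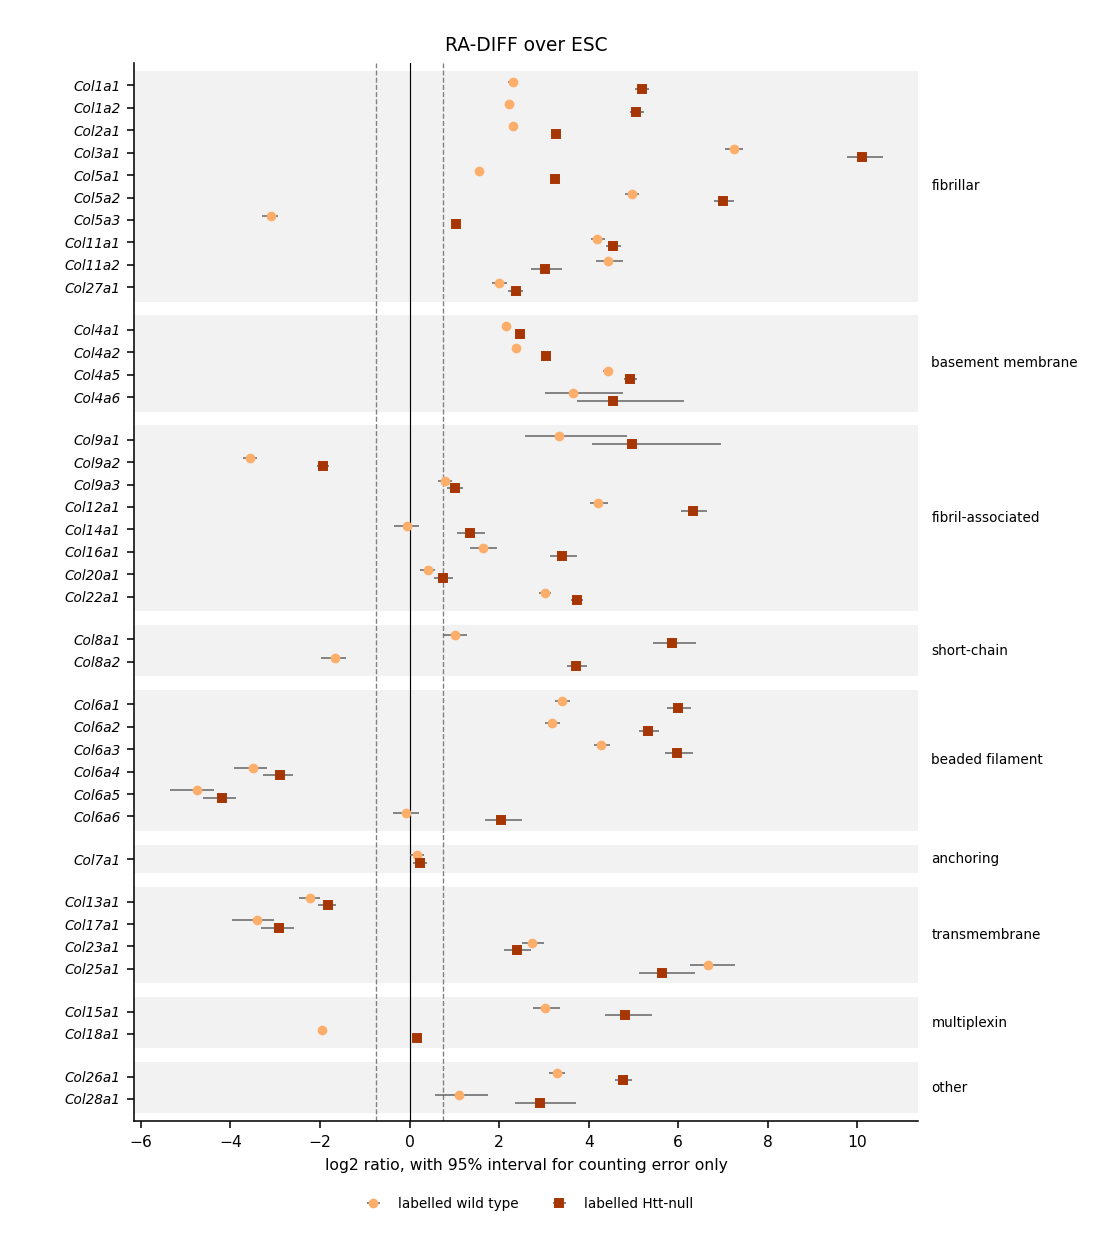
Log2 ratio of RA-DIFF over ESC (x axis) for the 39 collagen genes above the expression limit, by class, in cells labelled wild type (circles) and labelled Htt-null (squares); bars are 95% intervals for counting error and dashed lines the fold limit of 0.75. Col3a1 lies farthest right at 7.23 and 10.11, and Col5a3 and Col8a2 lie beyond the dashed lines on opposite sides under the 2 labels.

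The second question was how Htt-null ESC differed from wild-type ESC. No collagen gene above the expression limit was higher in Htt-null ESC, where 5.14% of all genes were, and 10 of 39 (25.6%) were lower, against 3.47% of all genes. The median log2 ratio of the collagen genes was -0.31, beside -0.04 for all genes, and without the expression limit the counts were 0 higher and 10 lower of the 43 genes with more than 3 counts in either library. The gene left out, Col19a1, had 1 and 3 counts, too few for a call. Adding the rule of the study's methods, an unadjusted p under 0.05 with an assumed dispersion of 0.1, left 2 of the 10. No share of all genes under that rule is given here. The 10 past the fold limit were 5 fibrillar chains, 3 beaded filament chains, Col8a1 and Col15a1. Col3a1 had a log2 ratio of -1.54 (interval -2.03 to -1.12), 2.90-fold lower, Col1a2 of -1.20 (-1.38 to -1.03), Col1a1 of -0.83 (-1.02 to -0.65), Col5a3 of -0.83 (-0.95 to -0.72) and Col5a2 of -0.81 (-1.09 to -0.55). Col8a1 was at -1.61 (-2.20 to -1.13) and Col15a1 at -1.21 (-1.87 to -0.66). Col6a1, Col6a3 and Col6a6 were at -1.07, -1.11 and -1.19. For the collagen I, III and VIII chains named here the Htt-null library held no more than 351 counts, whereas Col5a3 had 1947 counts in wild-type and 821 in Htt-null ESC.

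The 5 chains with the highest per-length level in wild-type ESC did not pass the limit. Col18a1 was at -0.62 (-0.64 to -0.60) and Col9a2 at -0.68, just inside it, Col4a1 was at -0.13, Col4a2 at -0.23 and Col5a1 at -0.36. Col4a5 was at -0.16 and Col4a6 at -0.41, so none of the 4 basement membrane chains above the expression limit passed it. Col2a1 (0.08), Col11a1 (0.33), Col11a2 (0.09) and Col27a1 (0.24) did not pass it either. Summed in CPM, the collagen genes were at 0.717 times the wild-type level in Htt-null ESC. Genes on chromosome 8 had a median log2 ratio of 0.36 and those on chromosome 11 of 0.22 in this comparison, and Col4a1 and Col4a2 lie on the former, Col1a1 and Col23a1 on the latter. Subtracting each chromosome's median left the same 10 genes past the limit and moved Col4a1 to -0.49 and Col4a2 to -0.59, still inside it. Of the 11 fibroblast and mesenchyme markers above the limit, 4 were lower and 1 higher in Htt-null ESC, the latter being Lum on 0 and 1 counts, which is too few for a call, with a summed level of 42.6 CPM in wild-type and 38.2 in Htt-null cells. Of the 13 listed, Lum and Twist2 had 0 counts in wild-type and Dcn 0 in Htt-null ESC (10 in wild-type). Log2 ratios, which allow for library size, were 0.29 for Thy1 (910 and 835 counts) and 0.31 for Pdgfrb (344 and 321). Twist1 was at 0.06 (327 and 256) and Tagln at -0.03 (268 and 197). Fbn1 was at -0.47 (878 and 478), Pdgfra at -0.60 (446 and 221) and Acta2 at -1.25 (294 and 92). Of these only Acta2 passed the fold limit. All marker counts here are to be read beside 5.14% of all genes higher and 3.47% lower. Of 8 endoderm markers above the limit, 2 were lower and 1 higher, with a summed level of 71.9 and 40.8 CPM. The 2 lower ones, Cubn (37.6 and 17.9 CPM) and Dab2 (19.8 and 10.3), had the highest levels. Of 8 neural markers 4 were higher and 0 lower, at 91.2 and 143.5 CPM. Endothelial markers were higher in 1 and lower in 0 of 8 cases. Neural crest markers were higher in 1 and lower in 1 of 7. Notochord markers were higher in 1 of 3 and skeletal muscle markers in 1 of 2. Cartilage markers were lower in 1 of 5 and pluripotency markers in 1 of 6. The part of such cells, or of leftover feeder cells, in the collagen values was not tested. In bulk RNA, fewer cells of a type and less RNA per cell cannot be told apart.

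The third comparison set the Htt-null-labelled RA-DIFF library against the one labelled wild type. Collagen genes were mostly higher in the Htt-null-labelled library: 23 of 39 (59.0%), against 11.7% of all genes, and 2 (5.13%) lower, against 8.99%. Their median log2 ratio was 0.98, beside -0.01 for all genes, and without the expression limit 26 of 44 were higher and 2 lower. With the added rule on p and assumed dispersion, 15 remained higher and 0 lower. No share of all genes under that rule is given here, and the 11.7% and 8.99% belong to the fold limit alone. Summed in CPM, the collagen genes were 1.99 times as high. With the labels exchanged the same values read as 23 collagen genes lower and 2 higher in Htt-null cells.

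Among the fibrillar chains 7 of 10 were higher and Col11a2 was lower (-1.30, interval -1.41 to -1.19). Col5a3 had the largest ratio of the class at 3.30 (3.13 to 3.49), followed by Col1a1 at 2.06 (2.01 to 2.10), Col1a2 at 1.64 (1.60 to 1.69), Col3a1 and Col5a1 at 1.34 each, Col5a2 at 1.24 and Col2a1 at 1.06. Col11a1 (0.69) and Col27a1 (0.60) stayed within the limit. The 2 collagen I chains did not keep a fixed proportion: per length, Col1a1 stood 1.57 times (1.51 to 1.63) above Col1a2 in the wild-type-labelled library and 2.09 times (2.05 to 2.14) in that labelled Htt-null. In mature collagen I the helix holds more alpha 1 than alpha 2 chains.

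The short-chain pair had the largest ratios of the collagen genes together with Col5a3. Col8a2 was 27.2-fold higher in the Htt-null-labelled library (log2 4.76, 4.55 to 5.03) and Col8a1 was 9.40-fold higher (3.23, 3.09 to 3.39). In the beaded filament class Col6a1 (1.51), Col6a2 (1.43), Col6a5 (1.00) and Col6a6 (0.94) were higher, Col6a3 (0.59) and Col6a4 (0.56) were within the limit. For Col6a5, with 37 and 67 counts, the interval was 0.44 to 1.66. Of the fibril-associated chains Col16a1 (1.84), Col12a1 (1.45), Col9a1 (1.43), Col14a1 (1.01), Col22a1 (0.98) and Col9a2 (0.94) were higher, and Col9a3 (0.02) and Col20a1 (-0.08) were not. Col18a1 was at 1.50, Col26a1 at 1.70 and Col28a1 at 1.50.

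Basement membrane chains differed little. Col4a1 was at 0.18 (0.16 to 0.20), Col4a2 at 0.43 (0.40 to 0.45), Col4a5 at 0.35 (0.32 to 0.38) and Col4a6 at 0.49 (0.24 to 0.75). Summed in CPM with Col4a3 and Col4a4, they were 1.22 times as high, where the fibrillar sum was 2.46 times as high. No replicate was at hand to test this difference between classes. Transmembrane chains went the other way in sum, at 0.540 times. Col25a1 was lower (-1.22, -1.29 to -1.14), Col23a1 was at -0.43 and Col13a1 at 0.71, while Col17a1 was higher at 0.92 (0.40 to 1.53) on 44 and 75 counts. Col15a1 lay at 0.56 and Col7a1 at 0.30.

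**Figure D4:**
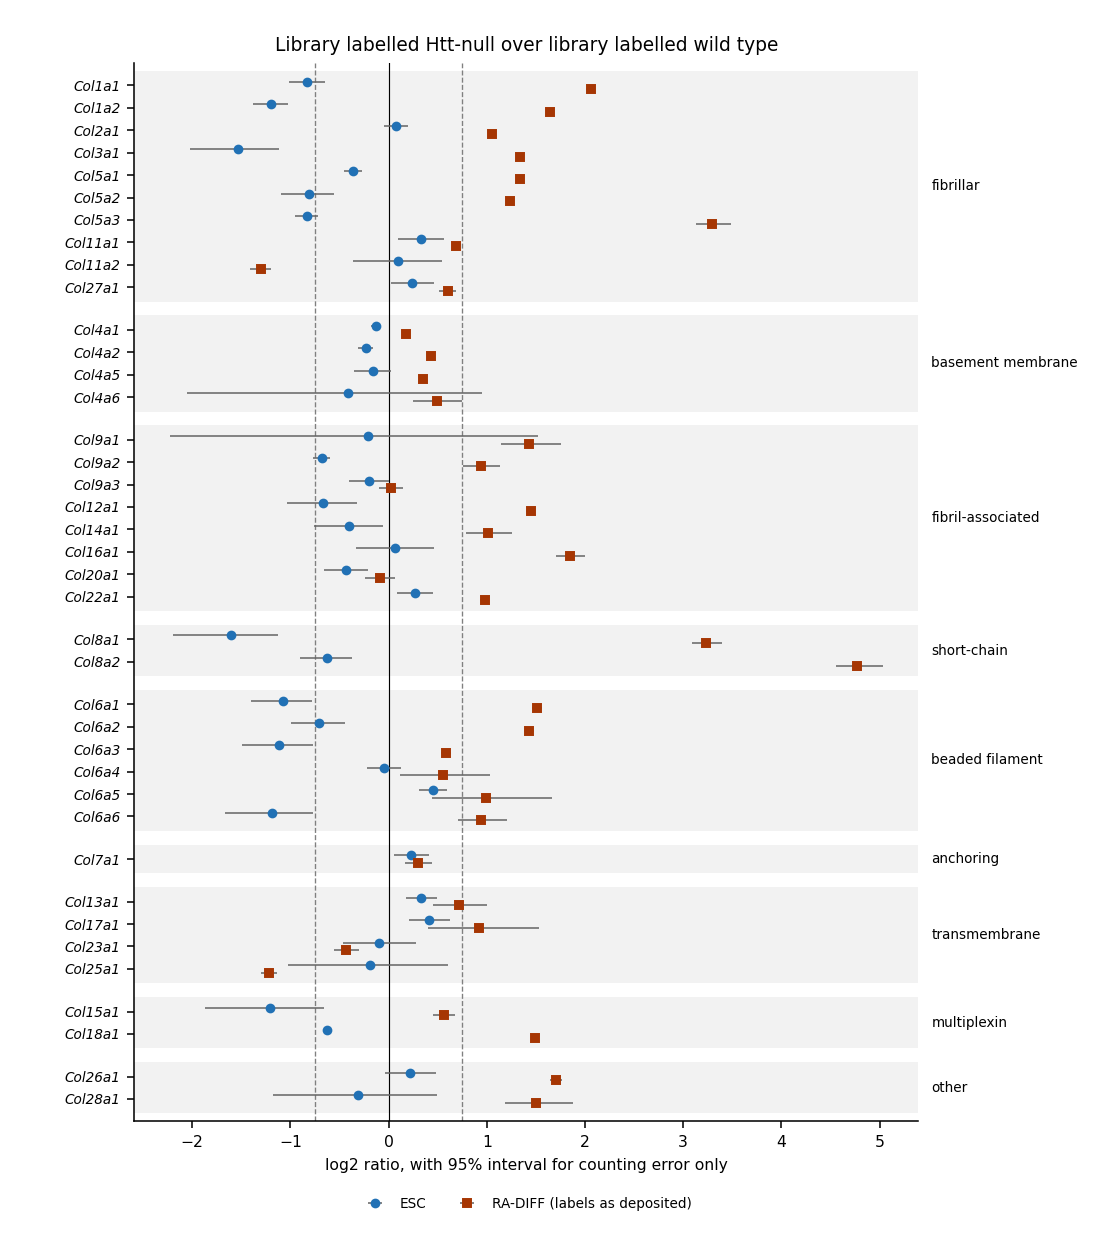
Log2 ratio of the Htt-null-labelled library over the wild-type-labelled library (x axis) for the 39 collagen genes above the expression limit, in ESC (circles) and RA-DIFF (squares); bars are 95% intervals for counting error and dashed lines the fold limit of 0.75. The RA-DIFF symbols of Col8a2, Col5a3 and Col8a1 lie beyond 3, while the 4 basement membrane genes lie between the dashed lines at both stages.

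The enzymes and partners that make and use collagen were examined as lists, whose counts are to be read beside the 11.7% of all genes higher and 8.99% lower in RA-DIFF, and 5.14% and 3.47% in ESC. Of the genes that modify prolines and lysines of the new chains, 9 of 15 were higher and 0 lower in the Htt-null-labelled RA-DIFF library, among them the prolyl hydroxylase subunit P4ha3 (2.29), P3h4 (1.68) and Crtap (1.52). Of the folding and export genes 5 of 9 were higher and 0 lower, including the chaperone Fkbp10 (2.38), Creb3l1 (2.21), a transcription factor of collagen-secreting cells, and Sparc (1.61). Processing and crosslinking genes were higher in 11 of 13 cases and lower in 1. Lox, which crosslinks collagen, had 233 and 3424 counts (4.05), Loxl4 was at 2.82 and the procollagen protease Adamts14 at 2.64.

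All 10 fibril-binding proteoglycans and glycoproteins above the limit were higher there, with Fmod, a fibril-binding proteoglycan, at 4.22, Ogn at 3.07 and Thbs1 at 2.64. Collagen receptors were higher in 5 of 8 cases and lower in 0, led by the integrin chains Itga2 (3.08) and Itga1 (2.51) and the receptor kinase Ddr2 (2.20). Collagen breakdown genes and their inhibitors were higher in 5 of 7 cases and lower in 0, with the gelatinase Mmp2 at 2.45 and the inhibitors Timp3 at 2.32 and Timp1 at 1.59. The non-collagen partners of collagen IV in basement membranes were higher in 7 of 10 cases, beside 0 of 4 collagen IV chains, with perlecan (Hspg2) at 2.34 and the laminin chains Lama5 at 1.95 and Lamc1 at 1.83. The 1 lower partner, Smoc1 at -1.20, is named after its value was seen. In ESC the lists in the same order had 1, 0, 0, 1, 0, 0 and 0 genes higher and 2, 0, 2, 3, 2, 0 and 0 lower in Htt-null cells, where the higher fibril-binding gene is again Lum on 0 and 1 counts.

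Markers of cell types also differed between the 2 RA-DIFF libraries, in counts again to be read beside 11.7% of all genes higher and 8.99% lower. Of the fibroblast and mesenchyme markers 10 of 11 were higher and 0 lower in the Htt-null-labelled library, and their summed level was 255.8 CPM in the wild-type-labelled library and 1478 in the one labelled Htt-null. This list shares 4 genes, Postn, Dcn, Lum and Fbn1, with that of fibril-binding proteins, so the counts of the 2 lists are not separate observations. Of 4 notochord markers listed, the 3 above the limit (T, Shh and Foxj1) were higher, and Noto had 0 and 3 counts. Endoderm markers were higher in 4 of 8 cases (Sox7, Foxa2, Dab2 and Plat). Gata4 (-0.12), Gata6 (0.24), Sox17 (0.48) and Cubn (0.62) stayed within the fold limit. Of the endoderm markers below the expression limit, Afp had 1 and 6 counts, Ttr 67 and 44, Amn 35 and 13 and Thbd 26 and 182. Endothelial markers were higher in 3 of 8 cases and lower in 1. Skeletal muscle markers were higher in 1 of 2 cases and cartilage markers in 1 of 5. Neural markers were lower in 6 of 8 cases, with a summed level of 3298 CPM in the wild-type-labelled library and 2093 in that labelled Htt-null. Pluripotency markers were lower in 6 of 6 cases, at 49.1 and 6.74 CPM. Neural crest markers were higher in 2 and lower in 4 of 7 cases. The part of these cell types in the collagen values was not tested.

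Several collagen genes lie in pairs. Col4a1 and Col4a2 start head to head on chromosome 8 with a 22 bp overlap, as do Col4a4 and Col4a3 on chromosome 1 with a gap of 71 bp and Col4a6 and Col4a5 on chromosome X with a gap of 1308 bp. Sharing a start region did not go with equal levels: per length Col4a5 stood between 53.0 and 80.3 times above Col4a6 in the 4 libraries, whereas Col4a1 stood between 1.42 and 2.14 times above Col4a2. Col3a1 and Col5a2 point tail to tail on chromosome 1, 24614 bp apart, with a per-length ratio of Col3a1 to Col5a2 of 0.53 and 0.31 in ESC and 2.55 and 2.74 in RA-DIFF.

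RefSeq promoter windows (GRCm38.p6, 250 bases before to 50 after a start) were at hand for 35 of the 44 genes, 38 windows in all. They had a median GC content of 59.8%, against 52.7% over all 32851 windows. A GC box (GGGCGG or its reverse complement) was in 60.5% of the collagen windows and 35.7% of all windows, a CCAAT box (CCAAT, either strand) in 34.2% and 37.4%, and a TATA box (TATAAA, either strand) in 13.2% and 13.6%. Such matches describe letters only and were counted at any place in the window. The upstream 250 bases of 2 fibrillar genes with large RA-DIFF ratios are shown because they differ in these matches, with box matches in capitals. Col1a2 (chr6:4505368-4505617, plus strand, upstream of a start 804 bp from the gene start in the counted annotation) holds 2 GC boxes and 1 CCAAT box, and Col3a1 (chr1:45311288-45311537, plus strand), whose window is the poorest in GC of the 38 at 37.7%, holds 1 TATA box.
Col1a2: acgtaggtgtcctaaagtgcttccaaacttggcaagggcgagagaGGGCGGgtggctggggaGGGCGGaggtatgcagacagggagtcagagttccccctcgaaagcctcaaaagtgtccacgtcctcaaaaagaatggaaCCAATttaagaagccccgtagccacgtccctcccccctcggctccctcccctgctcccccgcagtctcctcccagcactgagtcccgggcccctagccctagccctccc
Col3a1: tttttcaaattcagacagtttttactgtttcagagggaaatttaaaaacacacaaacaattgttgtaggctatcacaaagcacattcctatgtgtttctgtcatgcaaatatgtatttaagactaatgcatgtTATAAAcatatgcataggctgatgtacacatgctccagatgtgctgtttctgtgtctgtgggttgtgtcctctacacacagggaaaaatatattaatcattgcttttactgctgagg

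miR-29 is a family of microRNAs known to hold down collagen mRNAs by pairing of its seed (bases 2 to 8) with their 3′ untranslated regions. All 3 mature members share the seed, shown in capitals in the RefSeq sequences.
miR-29a-3p: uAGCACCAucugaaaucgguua
miR-29b-3p: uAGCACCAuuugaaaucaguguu
miR-29c-3p: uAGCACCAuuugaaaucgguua

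The reverse complement of that seed, TGGTGCT, was searched on the sense strand of the annotated 3′ untranslated region of 1 transcript per gene, that with the longest coding sequence in GENCODE M21. It was found in 23 of 44 collagen genes (52.3%), 11 of them with more than 1 match, and in 11.2% of 21688 other protein-coding genes. Density was 0.767 matches per kb in collagen genes and 0.106 in the others, with median lengths of 920.5 and 729 bases. The transcript searched had no such region in 3 collagen genes (Col11a2, Col18a1 and Col6a3) and 33 bases in Col25a1, so no match was possible or likely there. Among genes with at least 100 bases, a minimum chosen after the data were seen, 23 of 40 collagen genes (57.5%) and 12.7% of 19032 others had a match. All 6 basement membrane genes and 9 of 11 fibrillar genes had a match, but 3 of 9 fibril-associated, 1 of 6 beaded filament and 0 of 4 transmembrane genes. The beaded filament match lay in Col6a2. One site each of 6 genes from 4 classes is shown with its GRCm38 position, the match in capitals: Col1a1 at chr11:94952523-94952550, Col3a1 at chr1:45348967-45348994 and Col6a2 at chr10:76596165-76596192 (minus strand), Col4a1 at chr8:11199756-11199783 (minus strand), Col5a2 at chr1:45374960-45374987 (minus strand) and Col8a1 at chr16:57624700-57624727 (minus strand).
Col1a1: gtgggaaggaatttcTGGTGCTatagaa
Col3a1: ttcaaaatgtctcaaTGGTGCTataata
Col5a2: cttttcttttaatgaTGGTGCTaaaatt
Col4a1: gccaccgtcacaacaTGGTGCTactccc
Col6a2: tctccatcccatctgTGGTGCTaatagg
Col8a1: ctgtatattctaccaTGGTGCTaatatc

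**Figure D5:**
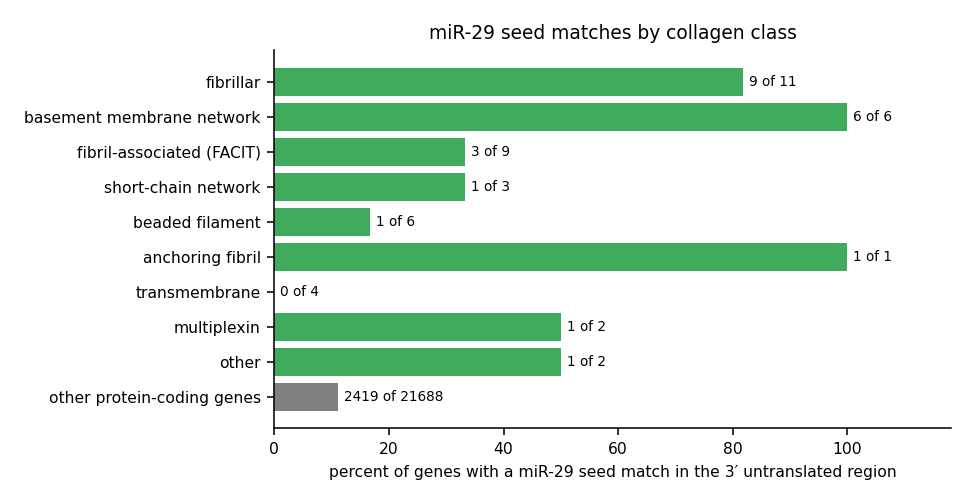
Percent of genes (x axis) with a miR-29 seed match in the annotated 3′ untranslated region, by collagen class (green) and for other protein-coding genes (grey), with the number of genes beside each bar. The basement membrane bar stands at 6 of 6 genes and the transmembrane bar at 0 of 4, one of which (Col25a1) had 33 bases to search, beside 11.2% of other protein-coding genes.

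In the small RNA libraries miR-29a-3p had 958, 886, 1068 and 463 counts (wild-type and Htt-null ESC, then RA-DIFF labelled wild type and labelled Htt-null), miR-29b-3p had 148, 140, 107 and 33, and miR-29c-3p had 234, 278, 389 and 258. In RA-DIFF the Htt-null-labelled library was below the one labelled wild type for miR-29a-3p (log2 -0.64, interval -0.81 to -0.49), inside the fold limit, and for miR-29b-3p (-1.11, -1.75 to -0.56), past it, while miR-29c-3p was at -0.03 (-0.26 to 0.20). In ESC the 3 were at -0.24, -0.20 and 0.12. Scaling bears on these ratios, since the median of 687 miRNAs in RA-DIFF was -0.03 with TMM and -0.48 with library size alone, and the latter gave -1.12, -1.55 and -0.51.

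The collagen genes with and without a seed match were set side by side. In RA-DIFF, 12 of the 20 genes with a match above the expression limit were higher in the Htt-null-labelled library and 0 lower, with a median log2 ratio of 1.15, and of the 19 without one 11 were higher and 2 lower, with a median of 0.94, where 11.7% of all genes were higher and 8.99% lower. The second group included 4 genes with no or almost no annotated region to search, Col11a2, Col18a1, Col6a3 and Col25a1, and the 2 lower genes, Col11a2 and Col25a1, were among them. Without these 4, 10 of 15 were higher and 0 lower, with a median of 0.94. Over ESC, genes with a match had median ratios of 2.70 and 4.55 under the wild-type and Htt-null labels, and those without one of 0.40 and 2.05, or of -0.06 and 1.35 without the same 4 genes. The difference was not tested, and the members of a class share ancestry as well as sites.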

How the data were processed

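Per the labels and the study's methods, the authors aligned 50 bp paired-end reads of strand-specific poly-A libraries to GRCm38.p4 with TopHat 2.0.14, counted them on GENCODE M6 genes with HTSeq 0.6.1 (intersection-nonempty mode, other options at their defaults) and deposited raw counts per gene. For small RNA, the authors removed adapters (cutadapt 1.3), aligned the trimmed reads of 16 to 25 bases to mature miRNAs of miRBase with BWA 0.7.5a-r418 (1 difference) and deposited raw counts per miRNA. No pooled or authors' comparison column was used.

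From the counts, log2 ratios were computed with edgeR 4.0.16 (R 4.3.3) as TMM-scaled CPM with a prior count of 2 over all 32567 genes. The fold limit (0.75) and expression limit (0) followed the study's methods. The assumed dispersion there was used only as an alternative, since 1 library per condition allows no estimate. A count of 0 allows up to 3 counts, between 0.0271 and 0.0472 CPM. For ESC, subtracting each chromosome's median log2 ratio was an alternative. After seeing the data, stage was also tested over both lines with edgeR's quasi-likelihood test on the genes above the expression limit, with and without the line as a block. Both steps were run on simulated counts. These were drawn without spread between replicates for the fold limit, and with a fixed spread and large planted changes for the stage test. Such runs check the code and cannot show how far the calls would repeat in new cultures. Exon lengths, untranslated regions and sequences came from GENCODE M21 and RefSeq. Protein sequences and promoters of 9 members were not used here. Every collagen gene is named, with counts for fibrillar and basement membrane genes above the limit, the 2 with the highest per-length level of other classes and the 3 with the largest ratio per comparison (at least 100 counts in the higher library). Each pathway list gives up to 3 genes with the largest RA-DIFF ratio by the same minimum. The members and lists were chosen with earlier results of these data known.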

Additional observations from a re-analysis of the deposited data

Results flagged for a closer look

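Some collagen genes passed the fold limit in opposite directions at the 2 stages, lower in Htt-null ESC and higher in the Htt-null-labelled RA-DIFF library. The difference between stages was not tested, since each condition has 1 library, and with the RA-DIFF labels exchanged these genes would be lower at both stages. The log2 ratios in ESC and RA-DIFF were -0.83 and 2.06 for Col1a1, -1.20 and 1.64 for Col1a2, -1.54 and 1.34 for Col3a1, -0.81 and 1.24 for Col5a2, and -0.83 and 3.30 for Col5a3. Outside the fibrillar class they were -1.07 and 1.51 for Col6a1, -1.19 and 0.94 for Col6a6, and -1.61 and 3.23 for Col8a1.

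For 2 genes the RA-DIFF over ESC ratio passed the fold limit in opposite directions under the 2 genotype labels, also untested. Col5a3 was at -3.10 in cells labelled wild type and 1.03 in cells labelled Htt-null, and Col8a2 was at -1.67 and 3.73. With the RA-DIFF labels exchanged, Col5a3 would be at 0.20 and -2.27, so it would no longer pass in opposite directions. Col8a2 would then be at 3.09 and -1.04.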

How the results depend on the processing

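Library size alone, DESeq2 size factors, a prior count of 0.5, no expression limit and a fold limit of 1 kept every count of collagen genes past the limit within 1.5 times, and kept the direction of every collagen gene past it. Of the calls, DESeq2 size factors lost Col9a3 in cells labelled wild type and Col20a1 in cells labelled Htt-null, and library size lost Col20a1. A p under 0.05 with an assumed dispersion of 0.1 left 2 genes past the limit in ESC, 2 of them lower, and 15 in RA-DIFF, 15 of them higher and 0 lower. With a dispersion of 0.01 the counts stayed within 1.5 times. For neither dispersion is a share of all genes given here. For the miRNAs, library size (chosen after seeing the data) gave -0.01 for miR-29a-3p in ESC and -1.12 and -0.51 for miR-29a-3p and miR-29c-3p in RA-DIFF.

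With the RA-DIFF labels exchanged, 2 collagen genes were higher and 23 lower in RA-DIFF, with a median of -0.98. The RA-DIFF over ESC medians became 3.12 (wild type) and 2.62 (Htt-null), with 5 and 8 genes lower. Over ESC, Col5a3 became 0.20 (wild type) and -2.27 (Htt-null), and Col8a2 became 3.09 and -1.04. Col18a1 became -0.45 and -1.32, Col14a1 0.95 and 0.34 and Col6a6 0.87 and 1.11. The RA-DIFF genotype log2 ratios became, by the construction of the exchange, Col8a2 -4.76, Col5a3 -3.30, Col8a1 -3.23, Col1a1 -2.06, Col16a1 -1.84, Col26a1 -1.70, Col1a2 -1.64, Col6a1 -1.51, Col28a1 -1.50, Col18a1 -1.50, Col12a1 -1.45, Col9a1 -1.43, Col6a2 -1.43, Col3a1 -1.34, Col5a1 -1.34, Col5a2 -1.24, Col2a1 -1.06, Col14a1 -1.01, Col6a5 -1.0, Col22a1 -0.98, Col9a2 -0.94, Col6a6 -0.94, Col17a1 -0.92, Col25a1 1.22 and Col11a2 1.30.

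In the test of stage over both lines (chosen after seeing the data), 31 collagen genes passed without the replicate block, 29 with the line as a replicate block and 32 with that block and the RA-DIFF labels exchanged, with 2 and 1 residual degrees of freedom. Genotype was compared within a stage, where 1 library per condition leaves no replicate to leave out, and a fit of genotype over both stages was not run. Depth limits Col4a3, Col10a1 and Col19a1, which had under 100 counts in every library.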
